A study of Mus musculus with 2 samples.

Results

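The 10 cardiac sarcomere genes Ttn, Myh6, Myh7, Tnnt2, Tnnc1, Tnni1, Myl3, Myl4, Myl7 and Actc1 were taken by symbol from the 32285 genes of 2 single-cell count matrices, and each symbol matched 1 gene. The matrices came from whole mouse embryos at embryonic day 9.5, 1 library per genotype. One genotype was wild-type and the other Usb1-null, which carries a germline CRISPR/Cas9 deletion of the first exons of Usb1, a gene for an RNA exonuclease that processes the U6 RNA of the spliceosome. How many embryos were pooled for a library is not stated. Usb1 gave 68 UMIs (unique molecular identifiers, 1 per captured RNA molecule) in wild-type cells and 47 in the others (3.13 and 1.41 per 1000000 UMIs), but the 3′ assay reads outside the deleted exons, so this does not check the label. With 1 library per genotype there was no replicate to measure error between embryos. All intervals are 95% intervals that cover counting error only, no test was made, and differences of sex, depth or handling between the libraries cannot be told apart from genotype.

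The wild-type library held 15162 barcodes, of which 15161 were kept, with 21732106 UMIs and a median of 1243 per cell. The Usb1-null library held 13034 barcodes, of which 13018 were kept, with 33383886 UMIs and a median of 2299.5. In CPM (a gene's UMIs scaled to a total of 1000000 for the library or cell class), Xist stood at 2451 in the first library and 0.779 in the second, while 4 Y-linked genes together stood at 0.644 and 703, so the libraries also differed in embryo sex. In all, 61 barcodes occurred in both libraries.

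Heart muscle contracts by sliding thick filaments of myosin along thin filaments of actin. Each myosin heavy chain binds an essential and a regulatory light chain, the troponin complex makes the thin filament respond to calcium, and titin spans the sarcomere as a spring. In the mouse embryo the first beating heart tube expresses most of these genes along its whole length, and the atrial and ventricular forms of the myosin chains become restricted to their chambers as development goes on.

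To describe these genes without circularity, cells were clustered with the 10 genes and 40 companion filament genes left out. One of 17 clusters was cardiomyocyte-like, with 21 of 22 cardiomyocyte markers such as Nkx2-5, Ryr2 and Smpx raised. It held 487 of the wild-type cells (3.21%, interval 2.94 to 3.51) and 432 of the Usb1-null cells (3.32%, 3.02 to 3.64), and these are called heart cells. Their median depth was 1504 and 2673 UMIs. Sub-clustering gave ventricular-like cells (182 wild-type and 163 Usb1-null, with Irx4, Hey2 and Hand1 raised), atrial-like cells (96 and 84, with Nr2f1, Nr2f2 and Vsnl1 raised) and 2 classes like the atrioventricular canal and outflow tract. One of these had Tbx2 raised (67 and 82 cells) and the other Isl1 (55 and 37 cells). A further 70 and 65 cells, with medians of 3106.5 and 5171 UMIs, carried markers of several other tissues beside those of the heart, and 58 and 50 of them were called doublets. Surface ectoderm markers summed to 263 and 256 CPM in them, against 125 and 67.8 in the remaining heart cells. Neural progenitor markers summed to 726 and 668 (224 and 242 in the rest), somite and sclerotome markers to 174 and 235 (31.6 and 41.9), and skeletal myotome markers to 136 and 176 (26.9 and 21.9). The last sub-cluster, 17 wild-type cells and 1 Usb1-null cell, was left unnamed. Its leading genes included the members Myh7, Myl4, Myl7 and Actc1, and the 10 genes summed to 19471.5 CPM in its wild-type cells. These cells count in the heart cells but in none of the named classes, and their part in the heart cell ratios was not tested. Over all heart cells the 10 skeletal myotome markers summed to 56.4 and 63.9 CPM, with 5 at 0 in each library. The muscle transcription factors Myod1 and Myog were at 0 in both and Myf5 in Usb1-null, but Myod1 was also at 0 in all other Usb1-null cells.

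The members lie on 5 autosomes in the mouse genome GRCm38 as GENCODE M21 annotates it. Myh6 (chromosome 14, 54941921 to 54966927) and Myh7 (chromosome 14, 54970684 to 54994626) are neighbours of similar sequence on the minus strand, so reads shared between them could be assigned to either. The antisense gene Mhrt (54968678 to 54974349) overlaps Myh7. Nisch overlaps Tnnc1 on the opposite strand, and Pth1r overlaps Myl3. Ttn is the longest of the set (chromosome 2, 76703980 to 76982547) at 278568 bases, and Myl7 the shortest (chromosome 11, 5896637 to 5898782) at 2146 bases. The counts are per molecule at the 3′ end and are not scaled by length. Whether reads in introns were counted is not stated, so levels of different genes are given side by side without a ranking of transcript abundance.

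The sequences before the RefSeq starts of 5 members are shown because 3 of them, Actc1, Myl7 and Myl3, share a CArG box, the element bound by serum response factor, and because Myh6 and Myh7 are the heavy chain pair whose shares are compared between chambers. Each run is on the gene's strand, from 210 to 36 bases before the start in GRCm38.p6, with capitals for matches to a CArG box or to CATTCC, the core bound by TEAD factors, on either strand. The Actc1 run is chr2:114052911-114053085 (minus strand), Myl7 chr11:5898818-5898992 (minus), Myl3 chr9:110763468-110763642 (plus), Myh6 chr14:54966643-54966817 (minus) and Myh7 chr14:54994662-54994836 (minus), the last before the farther upstream of 2 RefSeq starts.
Actc1: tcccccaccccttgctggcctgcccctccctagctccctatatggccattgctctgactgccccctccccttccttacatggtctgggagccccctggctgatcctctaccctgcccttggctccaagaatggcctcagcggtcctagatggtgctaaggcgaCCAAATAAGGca
Myl7: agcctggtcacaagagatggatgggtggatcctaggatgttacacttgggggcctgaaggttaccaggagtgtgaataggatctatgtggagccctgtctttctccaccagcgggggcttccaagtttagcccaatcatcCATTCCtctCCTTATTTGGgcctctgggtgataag
Myl3: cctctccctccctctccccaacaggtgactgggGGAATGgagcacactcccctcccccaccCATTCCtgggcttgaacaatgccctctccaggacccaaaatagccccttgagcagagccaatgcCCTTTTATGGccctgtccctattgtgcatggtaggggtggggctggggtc
Myh6: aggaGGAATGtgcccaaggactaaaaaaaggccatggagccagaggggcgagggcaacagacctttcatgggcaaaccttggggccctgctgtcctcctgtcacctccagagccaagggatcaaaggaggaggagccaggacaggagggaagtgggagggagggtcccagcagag
Myh7: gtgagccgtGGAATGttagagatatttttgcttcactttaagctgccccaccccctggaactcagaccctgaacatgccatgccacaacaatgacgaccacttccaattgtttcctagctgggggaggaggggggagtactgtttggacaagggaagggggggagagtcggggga
All 10 members matched a RefSeq promoter, and Tnni1, Tnnt2 and Myh7 had a further window each. A member is counted below if any of its windows matched, whereas the percents are over single windows. Within 250 bases before a start, 3 members held a CArG box, against 1.47% of 32851 mouse promoter windows. CATTCC lay before 6 members (Myh6, Myh7, Tnnt2, Tnnc1, Myl3 and Myl7), against 12.6% of windows. AGATAA, a core bound by GATA factors, lay before Tnnt2 (9.99% of windows), a MEF2 element before Ttn (2.92%), and TATAAA before none (12.4%). In Myl7 the CArG box began 61 bases and CATTCC 70 bases before the start. These are letter matches in reference sequence, and binding was not measured.

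All 10 genes were far higher in heart cells than elsewhere in both libraries, and together they stood at 15026 CPM in heart cells of the wild-type library and 12668 CPM in those of the Usb1-null library. A gene is counted past the fold between cell classes at a ratio of 2 or more after adding 1 CPM, among genes with at least 50 UMIs. By this rule 10 of 10 members were higher in heart cells in each library, where 6.3% of all genes were so in wild-type and 6.36% in Usb1-null. The members had median log2 ratios of 4.85 and 5.17, beside medians of -0.33 and -0.27 over all genes. In wild-type cells Ttn stood at 5307 CPM in heart cells (5155 to 5463) and 56.7 elsewhere, a ratio of 93.5 (87.7 to 99.8). Myh6 was near it at 91.0 (83.9 to 98.8), with overlapping intervals. Myl3 showed the narrowest contrast, with 358 (319 to 400) in heart cells and 25.4 elsewhere. The log2 ratios of the 10 genes ran from 3.77 (Myl3) to 6.52 (Ttn) in wild-type and from 4.44 (Myl3) to 7.05 (Tnnc1) in Usb1-null.

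Most heart cells carried most of the set. A median of 7 of the 10 genes was detected per heart cell in each library, and 0 in other cells. Ttn was detected in 97.5% of wild-type and 98.8% of Usb1-null heart cells, against 3.96% and 7.76% of neural progenitor-like cells, which should lack it and whose median depths were 1115 and 2126.5 UMIs. Myl3 was the least detected, in 39.8% and 43.5% of heart cells and 4.12% and 2.17% of neural progenitor-like cells. After each cell was thinned to 800 UMIs, which left out 52 wild-type and 4 Usb1-null heart cells, the median was 5 detected genes in wild-type and 4 in Usb1-null heart cells. At that depth Tnnc1 was found in 46.2% of heart cells in wild-type (41.4 to 51.0) and in 54.4% in Usb1-null (49.6 to 59.2), whereas Myh7 was found in 46.4% (41.7 to 51.2) and 25.7% (21.6 to 30.1).

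Among the members, Myh7 had the largest chamber difference in each library. This gene, which encodes the β heavy chain of ventricle and slow muscle, stood at 2227 CPM in ventricular-like and 141 in atrial-like wild-type cells. In the Usb1-null library it stood at 903 and 66.9. These are 608 against 21 UMIs and 408 against 15, so Myh7 was 15.8-fold lower in atrial-like cells in wild-type (10.2 to 25.7) and 13.5-fold lower in Usb1-null (8.09 to 24.3). With chambers called by marker UMIs instead of sub-clusters the difference was smaller, with Myh7 log2 ratios of -2.65 in place of -3.97 in wild-type and -2.42 in place of -3.74 in Usb1-null, both outside the counting intervals. Myh6, the α heavy chain of the atria, stood at 3659 in ventricular-like and 5757 in atrial-like wild-type cells, a ratio of 1.57 (1.43 to 1.73). In Usb1-null cells the levels were 3184 and 4070, a ratio of 1.28 (1.17 to 1.39). Myh6 was thus abundant in both chambers, and Myh7 had its lowest level of the 4 classes in atrial-like cells.

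The canal and outflow classes differed from each other in the same pair. In cells with Isl1, Myh7 reached its highest level of the 4 classes, 2639 in wild-type and 1164 in Usb1-null, and Myh6 its lowest, 927 and 1108. Myh6 was 3.95-fold lower there than in ventricular-like cells in wild-type (3.13 to 5.04) and 2.87-fold lower in Usb1-null (2.38 to 3.50). In cells with Tbx2, Myh6 stood at 3889 and 3312, with ratios to ventricular-like cells of 1.06 and 1.04 whose intervals included 1, and Myh7 at 838 and 341. Relative to ventricular-like cells, Myh7 had ratios of 0.376 (0.296 to 0.473) and 0.377 (0.291 to 0.484) in the Tbx2 class and of 1.19 (1.01 to 1.38) and 1.29 (1.05 to 1.58) in the Isl1 class, so these classes lay on opposite sides.

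**Figure D1:**
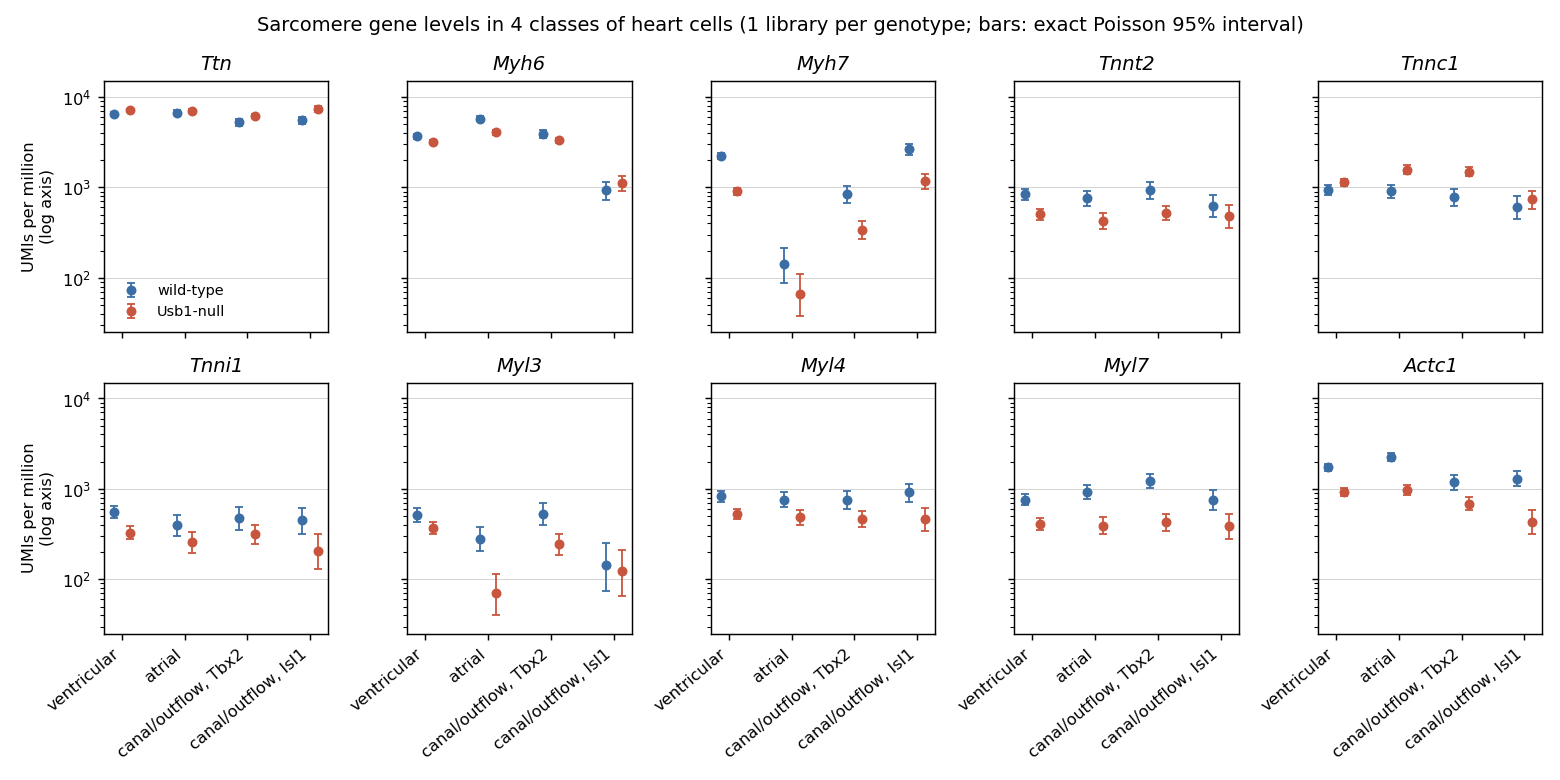
Level of each gene in CPM (vertical log axis) in ventricular-like, atrial-like and the 2 canal and outflow-like classes of heart cells, with blue points for the wild-type and red points for the Usb1-null library and bars for exact Poisson intervals. Myh7 dips in atrial-like cells to 141 and 66.9, Myh6 dips in the Isl1 class to 927 and 1108, and Myl4 is near level between ventricular-like and atrial-like cells in each library.

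Of the 3 member light chains, Myl3 differed between the chambers. Myl3, the ventricular essential light chain, stood at 516 in ventricular-like and 282 in atrial-like wild-type cells, a 1.83-fold lower level (1.29 to 2.65). In Usb1-null cells it stood at 367 and 71.3, 5.15-fold lower (3.08 to 9.22) on 166 and 16 UMIs. Both values depended on the cells chosen. Over the alternatives tried, Myl3 log2 ratios ran from -0.95 to -0.46 in wild-type and from -2.39 to -1.26 in Usb1-null. Myl4, the atrial essential light chain, did not follow the chambers, at 824 in ventricular-like and 760 in atrial-like wild-type cells and at 529 and 486 in Usb1-null cells. Its atrial over ventricular ratio was 0.922 (0.729 to 1.16) in wild-type and 0.919 (0.726 to 1.16) in Usb1-null. Myl7, the atrial regulatory light chain, stood at 758 and 928 in wild-type and at 409 and 392 in Usb1-null cells, with ratios of 1.22 (0.980 to 1.53) and 0.958 (0.735 to 1.24). For both atrial light chains these intervals included equal levels. The wild-type Myl7 log2 ratio of 0.29 became 0.50 with doublets removed, 0.52 with at least 1000 genes per cell and 0.58 with nothing left out of the clustering.

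Past the 2-fold limit, the atrial-like to ventricular-like contrast held 1 member lower in wild-type (Myh7), where 4.86% of all genes were lower. It held 2 lower in Usb1-null (Myh7 and Myl3), against 5.41%. No member was higher past the fold in either library, where 3.26% and 3.01% of all genes were. With doublets removed, with at least 1000 genes per cell or with nothing left out of the clustering, Myh6 also passed in wild-type, at log2 ratios of 1.06, 1.11 and 1.11. The members' median log2 ratio was -0.09 in each library.

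Neither titin nor any thin filament member passed the 2-fold limit between chambers, but some intervals lay away from 1. Actc1, cardiac α-actin, stood at 1736 in ventricular-like and 2260 in atrial-like wild-type cells, a ratio of 1.30 with an interval above 1, and at 931 and 976 in the Usb1-null library, where the ratio was 1.05 (0.886 to 1.24). Tnnt2, the tropomyosin-binding troponin T, had atrial over ventricular ratios of 0.906 (0.717 to 1.14) in wild-type and 0.852 (0.664 to 1.09) in Usb1-null. Tnni1, the slow skeletal troponin I that serves the embryonic heart, had ratios of 0.713 (0.518 to 0.969) and 0.790 (0.572 to 1.08). Tnnc1, the calcium-binding troponin C, had a ratio of 0.954 (0.768 to 1.18) in wild-type and 1.39 (1.21 to 1.59) in Usb1-null. Ttn had ratios of 1.02 (0.946 to 1.11) and 0.981 (0.923 to 1.04).

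Shares of the same UMIs, which need no scaling by library depth, were also taken within the heavy chains and within the 3 member light chains. Myl7 is a regulatory chain and not an alternative form of Myl3 and Myl4, so the Myl3 share also depends on Myl7. Myh6 made up 97.6% of the UMIs of both heavy chains in wild-type atrial-like cells (96.4 to 98.5) and 62.2% in ventricular-like cells (59.7 to 64.5). In Usb1-null cells the shares were 98.4% (97.3 to 99.1) and 77.9% (75.9 to 79.8). Over all heart cells Myh6 made up 70.7% of heavy chain UMIs (69.3 to 72.1) in the wild-type library and 84.1% (83.0 to 85.2) in the Usb1-null one. The Isl1 class had the lowest shares, 26.0% (21.1 to 31.4) in wild-type and 48.8% (42.3 to 55.3) in Usb1-null, and the Tbx2 class had 82.3% and 90.7%. The Usb1-null share was higher in all 4 classes, although in atrial-like cells the intervals overlapped. Among the 3 light chains, Myl3 took 24.6% (21.1 to 28.3) in ventricular-like and 14.3% (10.5 to 18.9) in atrial-like wild-type cells, and 28.1% (24.5 to 32.0) and 7.51% (4.35 to 11.9) in Usb1-null cells.

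**Figure D2:**
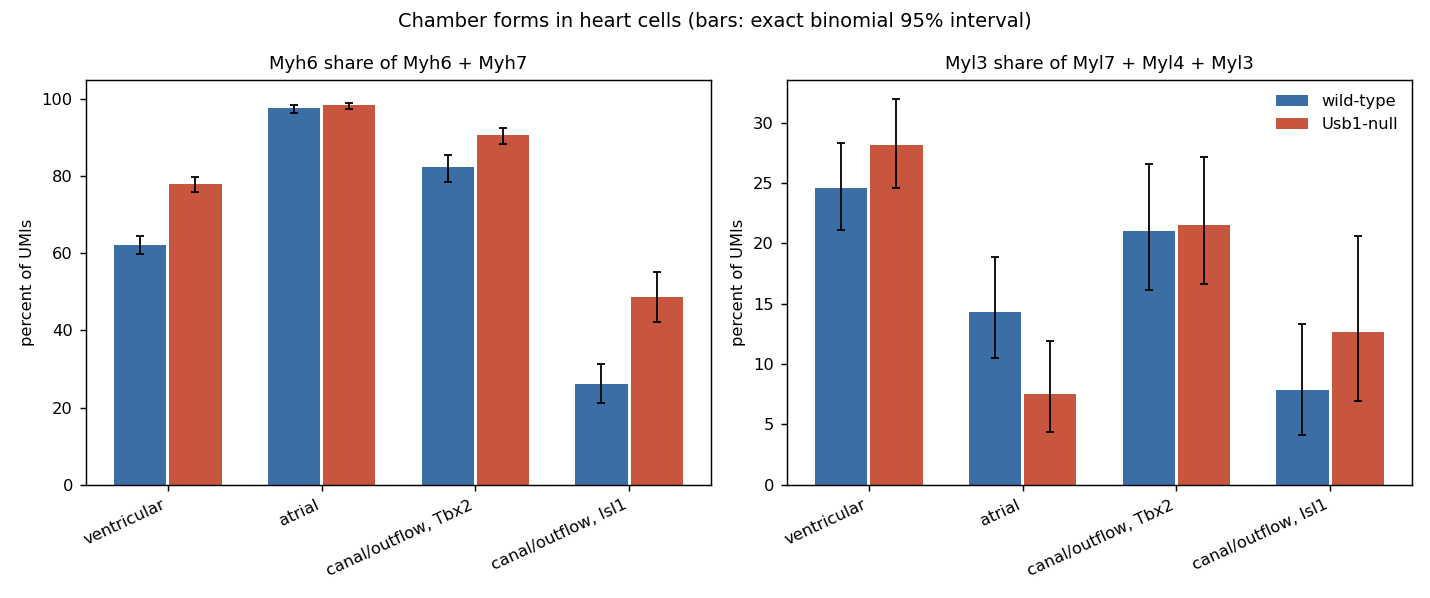
Percent of heavy chain UMIs from Myh6 (left) and percent of light chain UMIs from Myl3 (right) in 4 classes of heart cells, with blue bars for wild-type, red bars for Usb1-null and black lines for exact binomial intervals. The Myh6 share of ventricular-like cells is 62.2% in wild-type and 77.9% in Usb1-null, and the Isl1 class has the lowest Myh6 share in each library.

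Between the libraries, 7 of the 10 genes were lower in Usb1-null heart cells by at least 1.5-fold, and none was higher by as much. Across all genes with at least 50 heart UMIs, 7.29% were lower and 6.65% higher past this fold. The lower members were Myh7, Actc1, Myl7, Tnni1, Tnnt2, Myl4 and Myl3. The members' median log2 ratio was -0.70, against 0.02 over all genes. The ratios that follow are Usb1-null over wild-type in CPM.

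Of the thick filament genes, Myh7 was lowest relative to wild-type. It had 1344 CPM in wild-type and 523 in Usb1-null heart cells, a ratio of 0.389 (0.354 to 0.427). Myl7 stood at 734 and 346, a ratio of 0.471 (0.418 to 0.532). Myl4 stood at 697 and 428 (0.614, 0.547 to 0.689), and Myl3 at 358 and 222 (0.621, 0.528 to 0.729). Myh6 did not pass the fold, at 3246 and 2766 with a ratio of 0.852 (0.811 to 0.895). The neighbouring heavy chain genes thus had ratios whose intervals did not overlap.

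In the thin filament, Actc1 had 1468 CPM in wild-type and 719 in Usb1-null heart cells, a ratio of 0.490 (0.450 to 0.533). The troponins were divided. Tnnt2 stood at 689 and 423 (0.614, 0.547 to 0.689) and Tnni1 at 444 and 261 (0.587, 0.507 to 0.679). Tnnc1 was the opposite, at 739 in wild-type and 1102 in Usb1-null, a ratio of 1.49 (1.36 to 1.64) that lay just inside the 1.5-fold limit. Ttn, the scaffold, stood at 5307 and 5878.5 (1.11, 1.07 to 1.15). Of the 3 troponin subunits, Tnnc1 thus lay above 1, while Tnnt2 and Tnni1 lay below 1 with overlapping intervals.

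The direction was the same in each chamber class for Myh7, whose ratio was 0.405 in ventricular-like, 0.473 in atrial-like, 0.407 in Tbx2 and 0.441 in Isl1 cells. Myl7 ranged from 0.348 in the Tbx2 class to 0.540 in ventricular-like cells, and Actc1 from 0.336 in the Isl1 class to 0.578 in the Tbx2 class. Tnnt2 ranged from 0.563 to 0.766 (0.511 to 1.15 in the Isl1 class, which gave the highest value), Tnni1 from 0.461 to 0.664 and Myl4 from 0.507 to 0.642 over the 4 classes. Ttn had 1.09 (1.03 to 1.15) in ventricular-like, 1.04 (0.961 to 1.13) in atrial-like, 1.18 in Tbx2 and 1.34 in Isl1 cells, so its atrial-like interval included 1. Tnnc1 had ratios above 1 in all 4, from 1.20 in ventricular-like to 1.92 in Tbx2 cells, with an interval that included 1 in the Isl1 class (0.845 to 1.77). Myh6 lay below 1 in 3 classes and at 1.19 (0.889 to 1.61) in the Isl1 class. Myl3 ranged from 0.253 (0.133 to 0.459) in atrial-like cells, on 42 and 16 UMIs, to 0.863 in the Isl1 class, on 12 and 13 UMIs (0.363 to 2.07). Without the cells that held markers of other classes, 7 members were again lower past the fold in heart cells. Thinning heart cells to 800 UMIs each left 5 lower (Myl3 and Tnni1 no longer passed, at log2 ratios of -0.43 and -0.51) and put Tnnc1 past the fold at 0.60. With at least 1000 detected genes per cell Myl4 no longer passed, at -0.55, and Tnnc1 passed at 0.71. When heart cells were instead all cells with UMIs of at least 3 cardiomyocyte markers, 8 members were lower, and the log2 ratios of Ttn and Tnnc1 were -0.44 and -0.01 in place of 0.15 and 0.58.

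**Figure D3:**
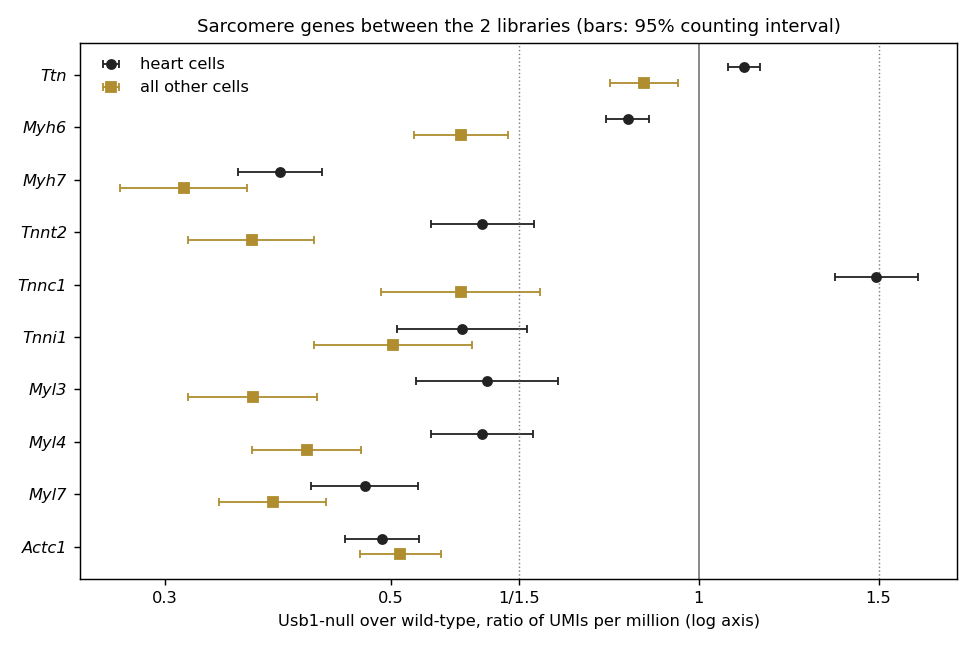
Ratio of Usb1-null to wild-type CPM for each gene (horizontal log axis) in heart cells (black circles) and in all other cells (gold squares), with bars for counting intervals and dotted lines at the 1.5-fold limits. Heart cells run from 0.389 for Myh7 to 1.49 for Tnnc1, and in other cells all 10 genes lie below 1.

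Summed over whole libraries, 7 members were lower past the fold, the 7 named for heart cells, where 3.96% of all genes were lower and 5.7% higher. The members' median log2 ratio was -0.95 against -0.00 over all genes, with Myh7 at 81.1 and 30.1 CPM and Tnnc1 at 41.6 and 52.5. In such sums fewer heart cells and less RNA per cell cannot be told apart, and the shares of heart cells in the libraries had overlapping intervals. Some general measures moved with the libraries. Mitochondrial genes took 0.476% of heart UMIs in wild-type and 0.190% in Usb1-null, and ribosomal protein genes 2.19% and 1.51%. Malat1, a nuclear RNA, stood at 14138 and 14821 CPM in heart cells. The 22 cardiomyocyte markers summed to 30455 and 25461 in heart cells, and the 8 primitive erythroid markers to 249.9 and 93.0, with Klf1 at 0 in both. The 5 smooth muscle markers, all with UMIs, summed to 289 and 148. The part of these measures in the lower sarcomere counts was not tested.

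Outside heart cells the members were still counted at low levels, with at least 8 of the 10 found in each of the 16 other clusters, and this background was lower in the Usb1-null library. All other cells together had 318 CPM of the 10 genes in wild-type (311 to 326) and 166 in Usb1-null (162 to 171). There, 9 of 10 members were lower past the fold, all except Ttn, where 4.12% of all genes were lower and 5.75% higher. Tnnc1 stood at 12.6 and 7.34 (ratio 0.585, 0.488 to 0.700), so outside the heart it lay on the other side of 1 than in heart cells. In a per-class view, neural progenitor-like cells had 300.0 and 154 CPM of the set, endothelium and endocardium-like cells 258 and 162, and somite and sclerotome-like cells 279 and 152. The lowest class in both libraries was intermediate mesoderm-like, at 171 and 73.6.

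Outside the heart the members stood at unequal percents of their heart levels, and the source of these counts was not tested. In wild-type cells the level outside the heart was 1.07% of the heart level for Ttn (1.00 to 1.14) and 1.10% for Myh6 (1.01 to 1.19). It was 7.08% for Myl3 (6.14 to 8.17), 4.76% for Myl7, 4.68% for Myl4 and 3.83% for Tnnt2. In Usb1-null cells it was 0.854% for Ttn, 0.755% for Myh6, 0.666% for Tnnc1 and 4.18% for Myl3. Heart cells therefore held 79.6% of all wild-type Ttn UMIs but 37.0% of those of Myl3, and 83.4% and 50.7% in Usb1-null. The Myh6 share of both heavy chains was also lower outside, 55.6% (52.9 to 58.3) in wild-type and 70.0% (67.0 to 72.9) in Usb1-null, than the 70.7% and 84.1% of heart cells.

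Some clusters had higher sums than this. Cluster 8, which no marker list named and whose median depths of 713 and 1109.5 UMIs were low, had 894 CPM of the set in wild-type (817 to 977) and 563 in Usb1-null (511 to 619). Few of its cells carried many members. In wild-type, 68.7% of its cells had no UMI of any member, as had 68.8% of all non-heart cells, 0.434% had 5 or more members, and the highest cell had 16.4% of its UMIs in members. Thinned to 800 UMIs, which kept 266 wild-type and 453 Usb1-null cells of the cluster, 74.8% and 85.4% had no member UMI, against 80.0% and 88.7% of all non-heart cells. At that depth Ttn was detected in 4.14% (2.08 to 7.28) and 5.74% (3.78 to 8.30) of its cells, against 3.08% and 3.22%, and without thinning in 4.78% and 9.97%, against 4.74% and 8.16%. Cluster 8 held the highest non-heart level of 7 members in wild-type: Ttn (268), Myh6 (106), Myh7 (134), Tnnc1 (23.8), Myl4 (58.6), Myl7 (77.0) and Actc1 (130.1). Cluster 16, yolk sac and hepatic endoderm-like, had 291 in wild-type but 834 in Usb1-null (638 to 1071), the latter on 61 UMIs in 52 cells with a median depth of 940. In Usb1-null cluster 8 was highest for Myl4 alone, and cluster 16 for 7 members (Ttn, Myh6, Myh7, Tnnt2, Myl3, Myl7 and Actc1). For each of these the interval overlapped that of the next class, as for Myh7 at 41.0 (8.46 to 120) against 23.7 (14.1 to 37.5). In wild-type the cluster 8 intervals of Tnnc1, Myl4 and Myl7 also overlapped those of the next class. The remaining members were highest elsewhere in wild-type. Myl3 was highest in cluster 16, at 79.3 (29.1 to 172.5). Tnni1 was highest in second heart field and splanchnic mesoderm-like cells at 34.1 in wild-type (28.2 to 40.8) and 16.4 in Usb1-null (13.2 to 20.2). Tnnt2 was highest in neuron-like cells, at 48.5 (28.2 to 77.6).

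**Figure D4:**
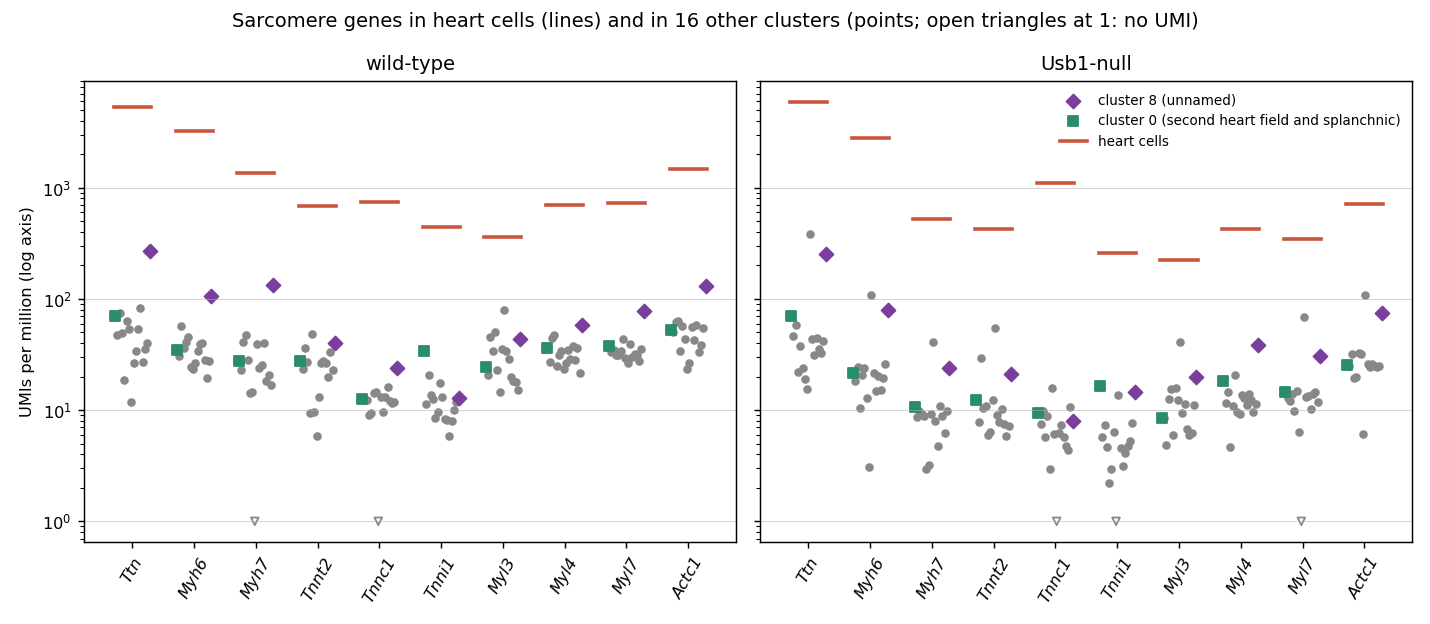
Level of each gene in CPM (vertical log axis) in heart cells (red lines) and in each of 16 other clusters (points), for wild-type (left) and Usb1-null (right), with open triangles at 1 where a cluster had no UMI. Cluster 8 (purple diamonds) lies at or near the top of the non-heart points for most genes, and cluster 0 (green squares) is highest for Tnni1.

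Skeletal muscle precursors can also express sarcomere genes. The 10 skeletal myotome markers summed to 356 CPM in wild-type and 312 in Usb1-null outside heart cells. There, 15 wild-type and 35 Usb1-null cells carried a UMI of Myod1, Myog or Myf5. In these Ttn stood at 766 CPM in wild-type and 385 in Usb1-null, against 55.8 and 49.0 in the remaining cells. Myh6, Tnnt2 and Myl3 had no UMI in the 15 wild-type cells (interval up to 128 CPM each), and the other 6 members stood at 34.8 to 104 CPM on 1 to 3 UMIs each. In the 35 Usb1-null cells Myl3 and Myl7 had none (up to 33.8), and the other 7 stood at 9.15 to 36.6 on 1 to 4 UMIs. The 9 members beside Ttn stood at 12.4 to 51.4 CPM in the remaining wild-type cells and at 6.99 to 26.2 in those of Usb1-null.

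Of 40 other filament genes, 26 had at least 50 heart UMIs. Of these 9 were lower and 0 higher past the 1.5-fold limit in Usb1-null heart cells, with a median log2 ratio of -0.41 and 23 of 26 below 0, beside 7.29% of all genes lower, 6.65% higher and a median of 0.02. The ratios farthest from 1 in the list were those of Acta1, skeletal α-actin, at 155 and 57.4 CPM (0.369, 0.276 to 0.491), Myl2, the ventricular regulatory light chain, at 599 and 261 (0.437, 0.381 to 0.5004), and the chaperone Cryab at 53.0 and 23.2. Among 13 calcium-handling and natriuretic genes, 11 had enough UMIs, of which 3 were lower and 0 higher, with a median of -0.29, against the same 7.29% and 6.65% of all genes. Nppa, atrial natriuretic peptide, stood at 649 and 155 (0.239, 0.204 to 0.281). Pln, the inhibitor of the sarcoplasmic calcium pump, stood at 36.8 and 19.6, and Nppb, the brain natriuretic peptide, at 40.3 and 24.7 with an interval that included 1.

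Between chambers, 22 filament genes had enough UMIs in wild-type, of which 1 was higher and 3 were lower past 2-fold in atrial-like cells, with 8 above and 14 below 0 and a median log2 ratio of -0.27 (all genes 3.26% higher, 4.86% lower, median -0.03). In Usb1-null 0 of 21 were higher and 3 lower, with a median of -0.12 (3.01%, 5.41% and 0.01). The lower genes were Myl2, Acta1 and Des in both libraries, and the higher gene was Tpm2, a tropomyosin, named here after its values were seen, as were Acta1, Des and Trdn for this comparison. Tpm2 stood at 215 CPM in atrial-like and 87.9 in ventricular-like wild-type cells, and at 66.9 and 68.6 in Usb1-null. In the same order, atrial-like first, Acta1 stood at 108 and 256 CPM in wild-type and 40.1 and 104 in Usb1-null, and Des, the muscle intermediate filament protein, at 101 and 216 and at 62.4 and 159. Of 8 calcium handling and natriuretic genes with enough UMIs, 0 were higher and 2 lower in each library, Nppa and Trdn, a protein of the calcium release complex, which stood at 175 CPM in atrial-like and 473 in ventricular-like cells in wild-type and 232 and 633 in Usb1-null. Myl2 divided far more sharply than the members Myl3, Myl4 and Myl7, at 1095 CPM in ventricular-like and 6.73 in atrial-like cells in wild-type (299 and 1 UMIs) and at 575 and 13.4 in Usb1-null (260 and 3 UMIs). Synpo2l, a Z-disc protein, and Lmod2, an actin filament nucleator, rested on fewer than 50 UMIs over the 2 chambers in each library. With ventricular-like cells first, Synpo2l stood at 109.9 and 26.9 CPM in wild-type and 84.1 and 40.1 in Usb1-null, and Lmod2 at 76.9 and 47.1 and at 90.7 and 17.8. Nppa stood at 1388 CPM in ventricular-like and 343 in atrial-like wild-type cells, and at 319 and 80.2 in Usb1-null. Nppb stood at 80.6 and 13.5 CPM and Pln at 84.2 and 6.73 in wild-type, on 2 and 1 atrial-like UMIs. The calcium handling and natriuretic genes were not left out of the clustering, and Pln was among the markers that named the ventricular-like cells. Their chamber differences are therefore not independent of how the classes were made. The non-member genes most like the members' mean profile over 34 class-by-library sums were Acta2, vascular smooth muscle actin (Pearson r = 0.943), Smpx (0.898), 5430431A17Rik (0.895), Myl2 (0.892) and BC002189 (0.879). These sums share libraries and cells, so the values describe likeness of level only. 5430431A17Rik stood at 1164 and 1148 CPM in heart cells, without the lower Usb1-null level of Acta2 (798 and 431).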

How the data were processed

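Per the labels, both libraries were made from E9.5 whole embryos dissociated to single cells with the 10x Genomics 3′ v3.1 kit, although the molecule is given as nuclear RNA. The deposited files hold UMI counts per gene and barcode, made by the authors with Cell Ranger, 6.1.2 in the file headers and 2.1.1 in the submitters' processing notes, on mm10. The study names fewer wild-type cells than the files hold. The 10 members and all gene lists were chosen with earlier results of these data known.

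Cells with 200 to 6000 detected genes and under 30% mitochondrial UMIs were kept. Doublets were called with Scrublet but kept. Counts were scaled to 10000 per cell, and 2000 variable genes per library, 30 principal components, a NumPy implementation of Harmony by library and Leiden clustering (leidenalg 0.10.2, Scanpy 1.11.5) at resolution 0.4 gave 17 clusters, against a target of 19. A cluster was named when at least 5 markers of a list were raised 2-fold, and a heart sub-cluster when at least 3 were raised 1.5-fold, rules set after the clusters were seen. UMIs were summed per class and library and divided by the class total. Intervals are exact Poisson for levels, Clopper-Pearson for shares and conditional binomial for ratios. Genes with at least 50 UMIs over the classes compared entered counts of genes past a fold, after adding 1 CPM. No test was made with 1 library per group. All 10 members entered every comparison, with those not described singly given by range or count. From each companion list the 3 genes of largest absolute log2 ratio between libraries and the 3 between chambers were named among genes with at least 50 UMIs in all heart cells, and the 5 non-members most like the members over class sums. The calculations were tested on simulated counts. Other cell filters, doublet removal, marker gates, clusterings, pseudocounts, scalings and UMI minimums were tried.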

Additional observations from a re-analysis of the deposited data

Results flagged for a closer look

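Ttn and Tnnc1 had Usb1-null over wild-type ratios on opposite sides of 1 in heart cells and in all other cells, with counting intervals away from 1 on both sides. The difference between the cell sets was not tested, since each genotype had 1 library. For Ttn the ratio was 1.11 in heart cells (1.09 in ventricular-like, 1.04 with an interval that included 1 in atrial-like, 1.18 in the Tbx2 class and 1.34 in the Isl1 class) and 0.884 in all other cells. For Tnnc1 it was 1.49 in heart cells (1.20 in ventricular-like, 1.75 in atrial-like, 1.92 in the Tbx2 class and 1.22 with an interval that included 1 in the Isl1 class) and 0.585 in all other cells. The contrast did not hold with heart cells chosen by UMIs of at least 3 cardiomyocyte markers, where the log2 ratios in heart cells were -0.44 for Ttn and -0.01 for Tnnc1.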

How the results depend on the processing

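Counts of lower members between the libraries were 7 under each of 10 whole-library alternatives and 5 to 8 in heart cells. No paired analysis was possible because each genotype had 1 library and no replicate number was given in the labels. The number of members higher in Usb1-null heart cells went from 0 to 1 (Tnnc1) with at least 1000 genes per cell (where Myl4 was no longer lower past the fold) and after thinning to 800 UMIs. The causes of these and the following shifts were not tested. Heart cells chosen by UMIs of at least 3 cardiomyocyte markers were 5.92% of wild-type and 9.14% of Usb1-null cells, the deeper library having the larger share, and there 8 members were lower and the log2 ratios of Ttn and Tnnc1 were -0.44 and -0.01. The share of heart cells was 2.80% and 2.90% without doublets, 2.76% and 2.83% without cells holding markers of other classes, and 3.51% in wild-type with at least 1000 genes. Members higher in wild-type atrial-like cells went from 0 to 1 (Myh6) with at least 1000 genes, without doublets and with nothing left out of clustering. Members lower in Usb1-null atrial-like cells went from 2 to 1 with a minimum of 200 UMIs, where Myl3 was no longer tested. In wild-type ventricular-like cells Myh6 made up 55.0% with at least 1000 genes, 59.5% without doublets, 58.5% with nothing left out, 57.3% at resolution 1.0 and 58.1% with chambers called by marker UMIs. By that last rule Myh6 made up 93.7% and 95.6% in atrial-like cells of the wild-type and Usb1-null libraries. All 10 members were higher in heart cells under 15 alternatives per library. Scaling by TMM or median of ratios moved the all-gene median of heart against other cells from -0.33 to between -0.12 and -0.02 in wild-type. Leaving out the mixed cells or the shared barcodes, and thinning, were chosen after seeing the data. The chamber contrast of Myh7 rests on 15 to 21 atrial-like UMIs, and its log2 ratio ran from -4.16 to -2.65 in wild-type and from -3.97 to -2.42 in Usb1-null over the alternatives.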
